A study of Mus musculus with 2 samples.

Results

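The 9 genes described here, Tbr1, Eomes, Reln, Bcl11b, Cux1, Cux2, Fezf2, Pou3f2 and Foxp1, mark or specify the neurons of the cerebral cortex. They were taken by gene name, with all of their probes, from the 37074 gene names on the array. They were measured in the brain of mouse embryos at E10.5, in wild type embryos labelled C57BL/6 and in homozygous luxoid (Plzf lu/lu) embryos. The luxoid allele arose spontaneously and is present in every cell. It is a point mutation in the coding sequence of Plzf (Zbtb16) that truncates the protein severely. According to the methods the tissue was forebrain and midbrain, so cortical tissue was only a portion of each sample, and the sources used here give neither the number of embryos behind each sample nor the strain background of the lu/lu embryos. On each of 2 two-colour Agilent arrays, 1 wild type sample (Cy3) was compared with 1 lu/lu sample (Cy5), and the labels call the pairs biological replicates. The dyes were not exchanged, so a dye effect and the genotype cannot be told apart, and both arrays lay on 1 slide.

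The cerebral cortex is built from the inside outwards. The preplate, with Cajal-Retzius cells that secrete the glycoprotein reelin (encoded by Reln), appears first, deep layer neurons follow, and upper layer neurons are born last. The T-box factor Eomes (Tbr2) marks intermediate progenitors of the cortex and is followed in their young glutamatergic neurons by the related T-box factor Tbr1, which specifies layer VI neurons. The zinc finger factors Fezf2 and Bcl11b (Ctip2) specify subcerebral projection neurons of layer V, Foxp1 is a forkhead factor of projection neurons, and the homeodomain factors Cux1 and Cux2 and the POU factor Pou3f2 (Brn2) mark upper layer neurons. At E10.5 cortical neurogenesis has hardly begun, and several of these genes are also transcribed outside the cortex. The comparison therefore addresses the state of these genes in the absence of functional Plzf before the cortical layers form.

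All 9 genes had at least 1 probe that was well above background in both channels of both arrays. The array carried 30 probes for them, of which 19 were well above background in all 4 channels and 6 in none. The brightest probe stood for each gene. A gene passed the signal filter when its processed signal was above 200 and its signal-to-noise ratio at least 5 in all 4 channels, and only Cux1, Pou3f2 and Foxp1 did. The other 6 genes were tested among the 23283 genes well above background, and the 3 passing genes among the 10600 genes within the filter. As a check on the labels, the signal of Zbtb16 was 433 in wild type and 172 in lu/lu on array 1, and 546 and 211 on array 2. Its log2 ratio of lu/lu to wild type was thus -1.33 and -1.37 (adjusted p = 0.0448 with limma among the 11079 genes that passed the filter in at least 1 channel of each array, but 0.252 among the genes well above background).

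A set of 4 probes carries the contrasts described below, and the first 30 of their 60 bases are given 5′ to 3′ in lower case, as the deposited annotation has them. Of the brightest probes, those of Tbr1 and Eomes differed most between arrays, and mean log2 ratios of the Cux1 pair were -0.11 and 0.50. In build mm9 they lie at chr2:61652093-61652152 on the plus strand (Tbr1, NM_009322), chr9:118394425-118394484 on the plus strand (Eomes, NM_010136), chr5:136724181-136724240 on the minus strand (Cux1, NM_198602) and chr5:136744240-136744299 on the minus strand (Cux1, NM_001291233).
Tbr1: ccactgagaatcgttttgttttctgctcgt
Eomes: gctatgaagaacgagtgcccggtgctatta
Cux1, transcript NM_198602: tccatgatttgagttctgcttgcttcttta
Cux1, transcript NM_001291233: tagaccaactgctactgatctgtcagcgta

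None of the 9 genes lay beyond 1.3-fold toward the same genotype on array 1 and on array 2. Within the signal filter, 2.58% of the genes were higher in lu/lu by this rule and 0.736% were lower. Among the genes well above background, 2.52% were higher and 2.07% were lower. The arrays gave different pictures of these genes. On array 1 no member was higher beyond 1.3-fold and Reln and Pou3f2 were lower, whereas on array 2 Tbr1, Eomes, Reln, Bcl11b, Cux2 and Fezf2 were higher and none was lower. Of all genes well above background, 9.48% were higher and 9.67% lower beyond 1.3-fold on array 1 taken alone, and 6.5% were higher and 5.12% lower on array 2. The log2 ratio of each of the 9 genes was higher on array 2 than on array 1, as it was for 49.4% of the genes well above background. The median log2 ratio of the members was -0.17 on array 1 and 0.47 on array 2, while that of all genes well above background was 0.0036 and -0.0012. At an adjusted p under 0.05 limma called 0 of the 9 members, 0.0283% of all genes within the signal filter and 0.0% of those well above background. At an unadjusted p under 0.05, Bcl11b and Cux2 were called among the genes well above background, where 17.0% of all genes were called, and Foxp1 within the signal filter, where 27.8% were called. In RNA from whole tissue, fewer cells of a type and less RNA per cell cannot be told apart.

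**Figure D1:**
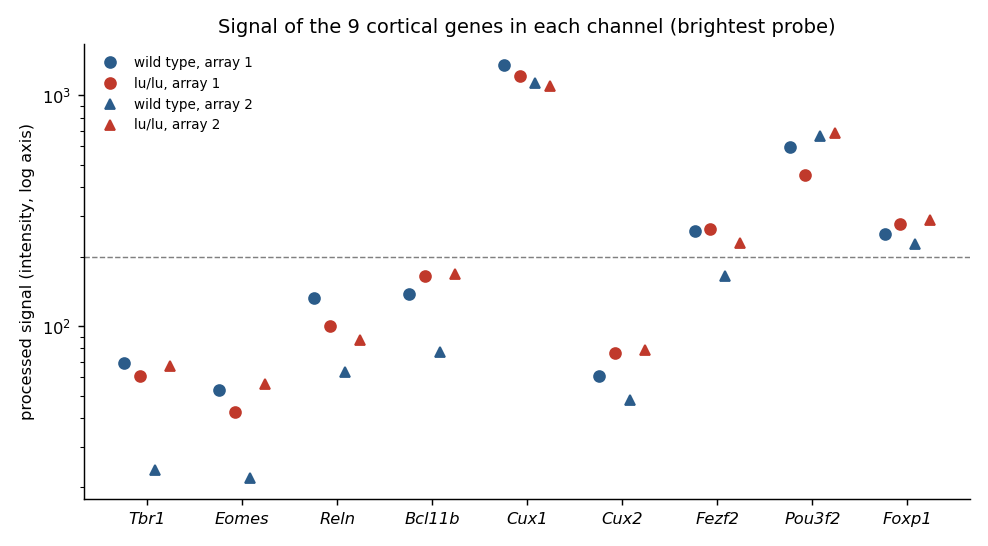
Processed signal (intensity, log axis) of the brightest probe of each gene in the 4 channels, with wild type in blue, lu/lu in red, array 1 as circles and array 2 as triangles. The dashed line marks the signal minimum of 200, and only the points of Cux1, Pou3f2 and Foxp1 all lie above it. The wild type signal of Tbr1 and Eomes on array 2 lies apart from the other 3 points of the same gene. Heights of different genes come from different probes and are not comparable.

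**Figure D2:**
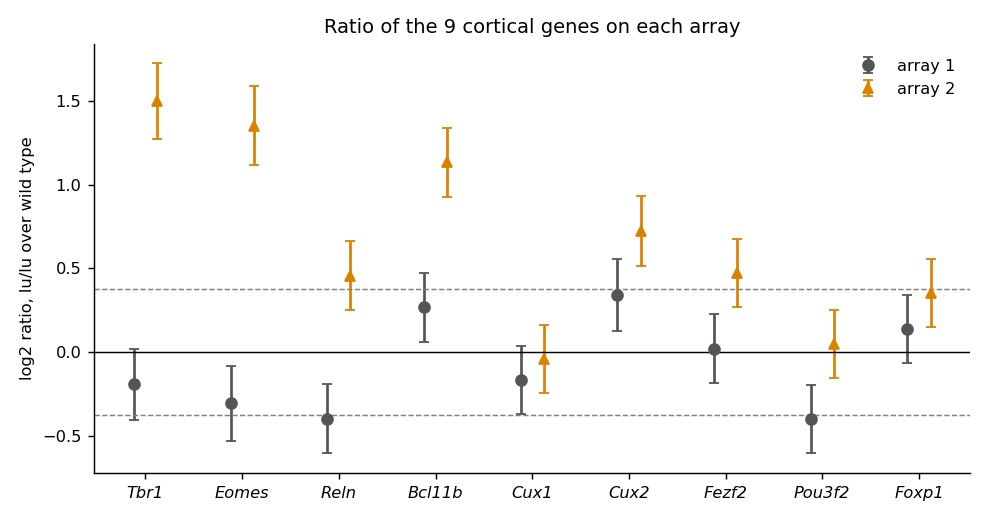
Log2 ratio of lu/lu to wild type for the brightest probe of each gene on array 1 (grey circles) and array 2 (orange triangles). Bars are the error that the scanning software gave for a single spot, and dashed lines mark 1.3-fold. Every triangle lies above its circle, with the widest gaps at Tbr1 and Eomes, and no gene lies beyond the same dashed line on both arrays.

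The T-box pair had the least stable ratios. Tbr1 had a signal of 69.4 in wild type and 60.6 in lu/lu on array 1, and of 23.7 in wild type and 67.1 in lu/lu on array 2. Both lu/lu values and the wild type value of array 1 thus lay close together, and only wild type on array 2 was low. The log2 ratio was -0.19 on array 1 and 1.4999 on array 2, with a mean of 0.65 ± 1.20 (SD, n = 2 arrays; limma adjusted p = 0.481). The direction was therefore not settled by these arrays. Eomes had a signal of 52.7 in wild type and 42.6 in lu/lu on array 1, and of 21.9 and 56.0 on array 2. Its log2 ratio was -0.31 and 1.35, with a mean of 0.52 ± 1.17 (SD, n = 2; limma adjusted p = 0.552). As for Tbr1, wild type on array 2 stood apart from the other 3 values. The software's own error of a single log2 ratio lay between 0.20 and 0.23 for the brightest probes of the 9 genes, whereas the ratios of Tbr1 differed by 1.69 between the arrays and those of Eomes by 1.66. A rise by more than 1 from array 1 to array 2 was found for 1.09% of the genes well above background, and for 1.73% of those among them that failed the signal filter, as both T-box genes did. The second probe of each gene was not well above background in any channel, so neither ratio was measured by another probe.

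For Tbr1 and Eomes, the members whose ratios differed most between the arrays, the 250 bases before the annotated start sites are shown. They come from RefSeq on GRCm38.p6, at chr2:61804203-61804452 and chr9:118477939-118478188, both on the plus strand. Shared control of these genes was not tested. Capitals mark matches on either strand to 6 motifs, none of which overlap here.
Tbr1 promoter: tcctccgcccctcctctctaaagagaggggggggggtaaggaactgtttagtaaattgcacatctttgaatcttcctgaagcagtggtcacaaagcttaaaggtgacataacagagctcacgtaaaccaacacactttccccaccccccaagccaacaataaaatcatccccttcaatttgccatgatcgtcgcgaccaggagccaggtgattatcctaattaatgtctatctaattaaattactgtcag
Eomes promoter: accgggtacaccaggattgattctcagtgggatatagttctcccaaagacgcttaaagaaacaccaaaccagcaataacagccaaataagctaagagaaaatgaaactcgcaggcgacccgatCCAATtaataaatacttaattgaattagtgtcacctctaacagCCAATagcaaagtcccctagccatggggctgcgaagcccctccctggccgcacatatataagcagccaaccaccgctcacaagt
The motifs were the E-boxes CAGCTG (in 13.0% of 32851 mouse promoter windows of the same length) and CAGATG (14.44%), the T-box element AGGTGTGA (1.12%), the octamer ATGCAAAT of POU factors (1.601%), the CCAAT box (33.85%) and TATAAA (12.37%). Eomes had 2 CCAAT boxes and Tbr1 had no match. The windows had a GC content of 45.2% for Tbr1 and 46.4% for Eomes.

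Reln, the secreted signal of Cajal-Retzius cells, was lower in lu/lu on array 1, where the signal was 132 in wild type and 100.3 in lu/lu. On array 2 it was higher in lu/lu, with 63.2 in wild type and 86.8 in lu/lu. The log2 ratios of -0.40 and 0.46 cancelled in the mean of 0.03 ± 0.61 (SD, n = 2; limma adjusted p = 0.958). Again the lowest of the 4 values was wild type on array 2. Of the 6 Reln probes, only the one near the 3′ end of NM_011261 (chr5:21390477-21390536, minus strand, mm9) was well above background in all 4 channels.

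All 10 genes of the list of reelin receptors and signalling proteins were well above background, and 4 passed the signal filter, of which none was beyond 1.3-fold on both arrays. The receptor gene Vldlr failed the filter and was higher in lu/lu on both arrays, with a log2 ratio of 0.66 and 0.92 (limma adjusted p = 0.252 among the genes well above background). Its signal was 194 and 225 in wild type and 308 and 426 in lu/lu, and Vldlr was named after its values had been seen. The second receptor gene, Lrp8, had log2 ratios of -0.07 and -0.24, and the adaptor gene Dab1 0.56 and 0.32, neither beyond 1.3-fold on both arrays. Of the passing genes, Cdk5r1, the activator of the kinase Cdk5, had log2 ratios of 0.35 and 0.71 (limma adjusted p = 0.068), Cdk5 itself -0.45 and -0.18 (0.11) and the adaptor Crkl 0.26 and 0.21 (0.121).

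Of the layer V factors, Bcl11b had a signal of 137 in wild type and 165 in lu/lu on array 1, and of 76.9 and 168 on array 2. The lu/lu values were nearly equal. The log2 ratio was 0.27 and 1.13, with a mean of 0.70 ± 0.61 (SD, n = 2; limma unadjusted p = 0.0436, adjusted p = 0.285). Bcl11b had a second probe at the 5′ end of a different transcript model (chr12:109241744-109241803), which was also well above background in all 4 channels. It had log2 ratios of -0.39 and 0.32, so the direction on array 1 depended on the probe, while both probes gave a higher ratio on array 2. This second probe was dim, however, with signals from 17.05 to 26.22. Fezf2, with 1 probe, had a signal of 259 in wild type and 262 in lu/lu on array 1, and of 165 and 228 on array 2. It was unchanged by the 1.3-fold rule on array 1 and above it on array 2, with log2 ratios of 0.02 and 0.47 and a mean of 0.25 ± 0.32 (SD, n = 2; limma adjusted p = 0.433). The signal of Fezf2 was under 200 only in wild type on array 2, and among the genes that passed in at least 1 channel of each array its adjusted p was 0.263.

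Foxp1 passed the filter and was higher in lu/lu on both arrays, by less than 1.3-fold. Its signal was 250 in wild type and 275 in lu/lu on array 1, and 226 and 288 on array 2. The log2 ratio was 0.14 and 0.35, with a mean of 0.24 ± 0.15 (SD, n = 2; limma unadjusted p = 0.0323, adjusted p = 0.147). Foxp1 had 6 probes, 3 of which were well above background in all 4 channels. The brightest lies toward the 3′ end of NM_053202 (chr6:98875434-98875493), and the other 2 had log2 ratios of 0.10 and 0.06 and of 0.04 and -0.03. The ratio of the brightest probe was thus close to that of the first of these on array 1 and above both on array 2. These 2 probes, of other transcript models of the locus, were dim, with signals from 44.2 to 62.3.

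The wider list of deep layer factors held 14 genes, Tbr1, Fezf2 and Bcl11b among them, and all were well above background. Their median log2 ratio was -0.01 on array 1 and 0.30 on array 2, and 11 of the 14 had a higher ratio on array 2. Of the 5 that passed the signal filter, 1 was changed by the 1.3-fold rule. This was Etv1, an ETS factor of layer V neurons, which was higher in lu/lu, with log2 ratios of 1.09 and 0.80 (limma adjusted p = 0.051). Its signal was 353 and 358 in wild type and 754 and 624 in lu/lu. The corepressor gene Tle4, a marker of layer VI, had log2 ratios of 0.46 and 0.31 (adjusted p = 0.0712), the nuclear factor gene Nfib 0.06 and 0.81 (0.181), and Sox5, a timing factor of deep layer neurons, -0.13 and -0.05 (0.482).

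Of the upper layer factors, Cux1 was the best measured. The brightest probe had a signal of 1355 in wild type and 1205 in lu/lu on array 1, and of 1125 and 1092 on array 2. These values differed little, with log2 ratios of -0.17 and -0.04 and a mean of -0.11 ± 0.09 (SD, n = 2; limma adjusted p = 0.413). All 7 Cux1 probes were well above background in all 4 channels, and 2 of them passed the signal filter. The second of these, on NM_001291233, had a signal of 237 in wild type and 298 in lu/lu on array 1, and of 218 and 346 on array 2. The log2 ratios were 0.33 and 0.67, with a mean of 0.50 ± 0.24 (SD, n = 2). Each probe tested on its own, this one had a limma adjusted p of 0.0622, against 0.403 for the brightest one. Each of the other 5 probes was lower in lu/lu on array 1, with log2 ratios from -0.57 to -0.21. On array 2 they lay between -0.50 and 0.13, and 3 of the 5 were lower again. The Cux1 locus encodes, besides the homeodomain factor, the Golgi protein CASP, which shares its N-terminal part but has no homeodomain. The brightest probe lies nearer the 3′ end of the locus than the second (chr5:136724181 against chr5:136744240, minus strand). The files do not state which protein each probe's transcript encodes. The small ratio of the brightest probe therefore need not be that of the homeodomain factor.

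**Figure D3:**
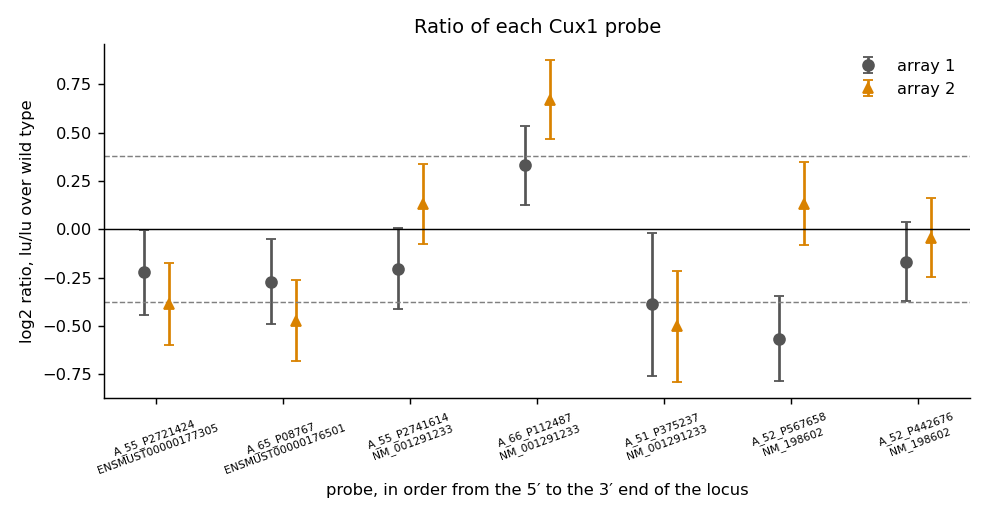
Log2 ratio of lu/lu to wild type of the 7 Cux1 probes on array 1 (grey circles) and array 2 (orange triangles), in order of position along the locus, with the probe and its transcript below. Bars are the software's error of a single ratio and dashed lines mark 1.3-fold. A_66_P112487 (0.33 and 0.67) is the only probe above 0 on both arrays, and 4 probes lie below 0 on both. Only A_66_P112487 and the brightest probe, A_52_P442676, passed the signal filter, and the others were dim.

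Cux2, the close relative of Cux1, was higher in lu/lu on both arrays. Its signal was 60.7 in wild type and 76.8 in lu/lu on array 1, and 47.7 and 78.9 on array 2. The log2 ratios of 0.34 and 0.72 had a mean of 0.53 ± 0.27 (SD, n = 2, limma unadjusted p = 0.0166, adjusted p = 0.256). A second probe that was well above background in all 4 channels had log2 ratios of 0.20 and 0.51. Cux2 was the only member with more than 1 measured probe in which each such probe was higher in lu/lu on both arrays. The signals, however, lay far under the minimum of 200. Pou3f2, the POU factor, differed from Tbr1 and Eomes in the sample that stood apart. Its signal was 595 in wild type and 451 in lu/lu on array 1, and 665 and 688 on array 2. The low value was here lu/lu on array 1, and the log2 ratios were -0.40 and 0.05, with a mean of -0.18 ± 0.32 (SD, n = 2; limma adjusted p = 0.379). Another scaling, normexp with median centring, raised the median of all genes within the signal filter by 0.55 and turned the mean ratios of Cux1 and Pou3f2 to 0.39 and 0.35, both under that shift.

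Among the 13 upper layer factors, 10 were well above background, with a median log2 ratio of -0.01 on array 1 and 0.07 on array 2. The signal filter left 6, of which 2 were higher in lu/lu by the 1.3-fold rule and none was lower. Pou3f1 (Oct6), a POU factor related to Pou3f2, had log2 ratios of 0.65 and 0.78 (limma adjusted p = 0.051), with a signal of 345 and 382 in wild type and of 541 and 658 in lu/lu. The LIM-only gene Lmo4 had log2 ratios of 0.74 and 0.40 (adjusted p = 0.0583). The LIM-homeodomain gene Lhx2, which defines cortical identity, likewise had its lowest value in wild type on array 2, with log2 ratios of -0.18 and 0.86 (0.376). Its wild type signal was 2070 on array 1 and 1196 on array 2, against 1828 and 2177 in lu/lu. The inhibitor gene Id2 had log2 ratios of 0.28 and -0.01 (0.397). Of 12 further relatives of the members, 5 passed the filter and of these only Pou3f1 was changed. Fezf1, the paralog of Fezf2, lay under the filter and was named after its values had been seen. It was higher in lu/lu beyond 1.3-fold on both arrays, with log2 ratios of 0.57 and 0.52 (adjusted p = 0.252 among the genes well above background), and its signal was 145 and 138 in wild type and 215 and 198 in lu/lu. Of the relatives that passed, Bcl11a, the paralog of Bcl11b, had log2 ratios of 0.01 and 0.77 (0.219), Onecut2 0.23 and 0.57 (0.0918) and Foxp4, a relative of Foxp1, -0.32 and -0.20 (0.114).

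For most of the 9 genes the signal differed more between the wild type samples of the arrays than between the lu/lu samples. From array 1 to array 2 the wild type signal was lower in 8 of the 9 genes, Pou3f2 being the exception, and the lu/lu signal was lower in 3, namely Reln, Cux1 and Fezf2, while of all genes well above background 45.8% were lower in wild type and 47.6% in lu/lu. On the log2 scale the wild type signal of Tbr1 on array 2 differed from that on array 1 by -1.55, that of Eomes by -1.27, that of Reln by -1.06 and that of Bcl11b by -0.84. In lu/lu these differences were 0.15, 0.39, -0.21 and 0.03. The wild type signal differed more than the lu/lu signal in 8 genes, again with the exception of Pou3f2, where the differences were 0.16 in wild type and 0.61 in lu/lu. Of all genes well above background, 56.7% differed more in wild type. Over all genes within the signal filter, the median difference between the arrays was -0.01 in wild type and -0.03 in lu/lu, and over the genes well above background that failed the filter, as 6 of the 9 members did, it was 0.08 and 0.09. The wild type channel of array 1 stood apart from the others in the number of gene spots well above background, with 36936 against 43546 in lu/lu on that array and 44100 and 44318 in wild type and lu/lu on array 2, and the part of this in the differences was not tested.

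**Figure D4:**
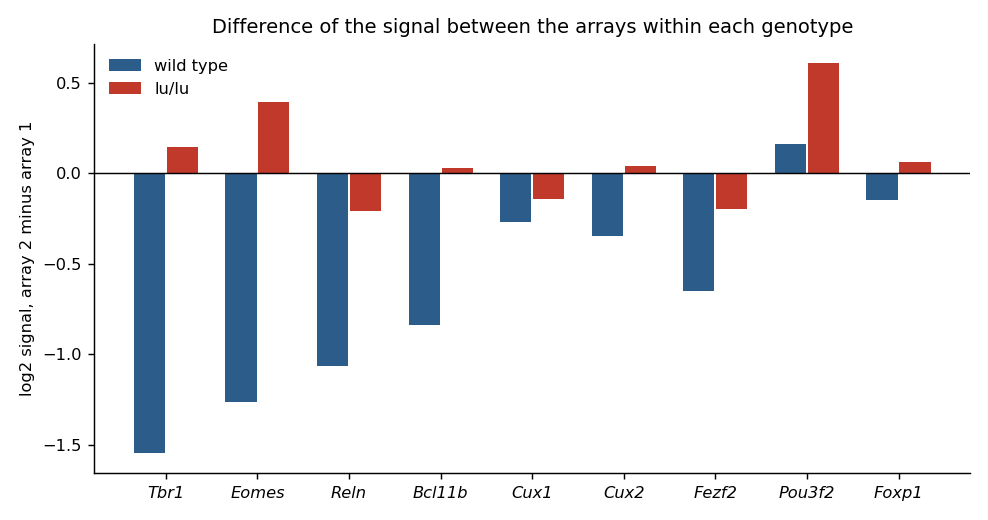
Difference of the log2 signal between array 2 and array 1 within wild type (blue bars) and within lu/lu (red bars) for the brightest probe of each gene. Wild type bars point down in all genes but Pou3f2 and reach -1.55 at Tbr1, whereas lu/lu bars stay between -0.21 and 0.61.

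Markers of other cells differed between the same samples. The 12 genes of primitive erythrocytes, globins among them, were all well above background and had a median log2 difference of -1.65 between the arrays in wild type and of -0.49 in lu/lu. Their summed signal was 592691 in wild type and 315084 in lu/lu on array 1, and 240137 and 295331 on array 2. The wild type sample of array 1 thus held the most erythrocyte signal, in the array where the cortical genes had their lower ratios. Of the 14 endothelial genes, 8 were lower in lu/lu beyond 1.3-fold on both arrays, with a median log2 ratio of -0.50 and -0.77, and their summed signal ranged from 5914 to 6586 in wild type and from 4565 to 4918 in lu/lu. Emcn (-0.63 and -0.68) and Plvap (-0.58 and -0.79) were those that passed the signal filter. Genes of mesenchyme and neural crest had medians of 0.05 and -0.10, with summed signals of 16405 to 18929 in wild type and 14978 to 19305 in lu/lu, and 2 of the 16 were not well above background. Those of surface ectoderm had medians of 0.50 and 0.05, with summed signals of 9983 to 13475 in wild type and 11237 to 14671 in lu/lu. The part of these cells in the ratios of the cortical genes was not tested.

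The lists of neural genes gave the setting of these values. Of the 15 pan-neuronal genes, 14 were well above background, and each of the 14 had a higher ratio on array 2 than on array 1. Their median log2 ratio was 0.10 on array 1 and 0.63 on array 2, with a median difference between the arrays of -0.18 in wild type and 0.38 in lu/lu. In this list the median difference was thus larger in lu/lu, whereas Tbr1 and Eomes differed more in wild type. Of the 13 that passed the filter, 2 were higher in lu/lu by the 1.3-fold rule, namely the RNA-binding protein gene Elavl4 (0.40 and 0.75, limma adjusted p = 0.0586) and the adhesion molecule gene Ncam1 (0.45 and 0.65, adjusted p = 0.0518). The neurofilament gene Nefl had log2 ratios of 0.07 and 1.06 (0.175), the tubulin gene Tubb3 0.33 and 0.79 (0.0764) and the internexin gene Ina 0.14 and 0.82 (0.136).

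Of the 12 genes of intermediate progenitors and proneural factors, 9 were well above background, and all 9 had a higher ratio on array 2. Their median log2 ratios were -0.10 and 0.19. None of the 4 that passed the filter was changed, namely Insm1 (0.01 and 0.37, limma adjusted p = 0.289), Gadd45g (-0.30 and 0.09, 0.556), Btg2 (-0.25 and 0.18, 0.861) and Hes6 (-0.10 and 0.13, 0.928). Under the signal filter, 2 proneural genes were higher in lu/lu beyond 1.3-fold on both arrays and were named after their values had been seen. The signal of Neurod1 was 58.7 and 77.1 in wild type and 154 and 213 in lu/lu, with log2 ratios of 1.40 and 1.47 (adjusted p = 0.252 among the genes well above background). Neurog2, which acts upstream of Eomes, had log2 ratios of 0.40 and 1.16 (adjusted p = 0.263), with a wild type signal of 160 and 147 and a lu/lu signal of 211 and 329. Both genes were higher in lu/lu on array 1 too, where Eomes and Tbr1 had ratios under 0.

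In the list of preplate and Cajal-Retzius neurons, which holds Reln and Tbr1, 9 of the 10 genes were well above background, with medians of -0.19 and 0.29. The 2 that passed the filter were not changed by the rule, and these were the LIM-homeodomain gene Lhx5 (0.92 and 0.17, limma adjusted p = 0.122) and the factor gene Ebf3 (0.04 and 0.49, adjusted p = 0.22). All 12 genes of the dorsal telencephalon were well above background, with medians of 0.24 and 0.47. The nuclear receptor gene Nr2f2 was higher in lu/lu by the rule (0.48 and 0.65, adjusted p = 0.051), with a signal of 662 and 692 in wild type and of 924 and 1089 in lu/lu. The doublesex-related gene Dmrta2 had log2 ratios of 0.25 and 1.14 (0.108), and Lhx2, given above, is a member of this list too, as Sp8 is (0.46 and 0.23, 0.0908).

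Genes of the midbrain and isthmus had medians of -0.03 and 0.04 over the 13 of 14 well above background. By the 1.3-fold rule En2 (-1.86 and -1.25, limma adjusted p = 0.051) and Pax3 (-0.40 and -0.70, 0.0574) were lower in lu/lu, and Otx2, a factor of forebrain and midbrain, was higher (0.38 and 0.39, 0.0629). Of the others, Wnt1 had log2 ratios of -0.60 and -0.21 (0.1), Fgf8 0.40 and 0.19 (0.108) and Gata3 0.50 and 0.04 (0.214). Over the cortical and neuronal lists together, 7 genes within the filter were higher in lu/lu by the rule and none was lower. These lists overlap, and each held from 2 to 13 genes within the filter. Of all genes within the filter, 2.58% were higher and 0.736% lower. Several of the genes named from these lists are in a table that the study selected on these same arrays, so their direction is not independent evidence.

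**Figure D5:**
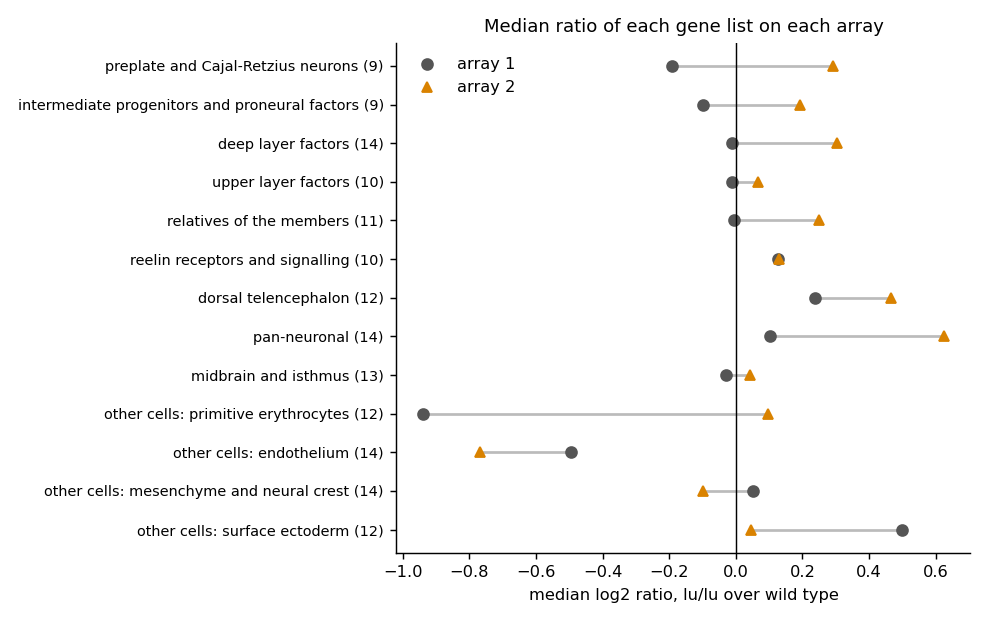
Median log2 ratio of lu/lu to wild type of each gene list on array 1 (grey circles) and array 2 (orange triangles), over the genes well above background, whose number stands in parentheses. The pan-neuronal, preplate and deep layer lists lie further right on array 2, and so do the erythrocyte genes (-0.94 and 0.10), while endothelial genes lie left of 0 on both arrays.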

How the data were processed

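Total RNA of the forebrain and midbrain was amplified, labelled and hybridised by the authors to 2 two-colour arrays, with wild type in Cy3 and Plzf lu/lu in Cy5 per the labels. The authors deposited the Feature Extraction 10.7.3.1 output of each array, whose processed intensity has the background removed and the dyes of an array brought to one scale by a LOWESS curve through rank-consistent probes. No step scaled one array to the other. A second deposited table holds the log2 ratio, which was compared with the scanner values (tolerance 0.006) and served as an alternative. Probe positions are in mm9.

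Here, control spots and outliers were dropped, repeated spots of a probe were averaged as log2 values, and the brightest probe stood for a gene. Members outside the signal filter were tested among the genes well above background. The ratios were modelled in R 4.3.3 by limma 3.58.1 (an intercept through lmFit, then eBayes), and p-values were adjusted by Benjamini-Hochberg over every gene tested. Each gene leaves 1 residual degree of freedom, so the test leans on the variance of all genes. The lowest p an exact sign-flip test allows with 2 arrays is 0.5, and the number of arrays limits the precision. Replicates are separate samples per the labels. The code was tested on simulated data. Tables and plots were made in Python 3.11.15 with pandas 2.3.3, matplotlib 3.10.9 and numpy 2.4.6, and files were read with the R package data.table (version 1.17.8).

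Named genes are the members, Zbtb16, list genes that passed the filter and lay beyond 1.3-fold on both arrays, and up to 3 further passing genes per list with the largest mean ratio. Not every gene this rule takes is reported here. The members and lists were chosen with earlier results of these data known. The alternatives were normexp (offset 50) with loess or median centring, the log2 table, other filters, the mean over all probes, the mean over passing probes (chosen after seeing the data), each probe alone, no pairing by array, eBayes with trend, removal of the GC trend (lowess, span 0.67), 1.5-fold, 1.3-fold in the mean ratio, and the arrays singly. Probe sequences come from the deposited annotation, and promoters from RefSeq (GRCm38.p6), matched by symbol for all 9 members. The exon or untranslated position of the probes was not analysed here.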

Additional observations from a re-analysis of the deposited data

How the results depend on the processing

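The array left out decided the direction of 4 members. With each array left out in turn, the log2 ratio ranged from -0.19 to 1.4999 for Tbr1, from -0.31 to 1.35 for Eomes, from -0.40 to 0.46 for Reln and from -0.40 to 0.0483 for Pou3f2, the lower value being array 1 alone. The number of members lower by the 1.3-fold rule within the signal filter ranged from 0 to 1, and for the cortical and neuronal lists the number of higher genes ranged from 11 to 24, and of lower genes from 0 to 3. Normexp with median centring moved the median of all genes within the signal filter by 0.55, and that of the genes well above background by 0.31. Against these shifts it gave log2 ratios of 0.54 for Tbr1, 0.82 for Bcl11b, 0.59 for Cux2, 0.58 for Fezf2 and 0.64 for Foxp1, and it turned Cux1 to 0.39 and Pou3f2 to 0.35, all 7 then under an adjusted p of 0.05 with limma. It also put 9644 of the 10600 genes within the signal filter under that threshold, against 3, and 13486 of the 23283 genes well above background, against 0, and placed 1 member higher by the 1.3-fold rule. The mean over all probes of a gene, dim ones included, turned Eomes to -0.13 and Reln to -0.24. The mean over the probes that passed the filter, chosen after seeing the data, turned Cux1 to 0.20, and its second bright probe alone gave 0.50, whereas the mean over its 7 probes was -0.14. The second probe of Bcl11b, a dim one, gave a mean of -0.0355. Over the alternatives other than median centring and an array left out, no member had an adjusted p under 0.05 for its brightest probe, the lowest being 0.104 for Cux2. Zbtb16 missed an adjusted p of 0.05 at an unchanged log2 ratio of -1.35 among the genes well above background, without a filter, with eBayes with trend, without pairing the channels by array and in the series' own table, at -1.34 with the GC trend removed, and at -1.17 over both means of its probes. In the cortical and neuronal lists, 7 genes were higher by the 1.3-fold rule, against 11 among the genes well above background, 13 without a filter, 38 with median centring, 4 with the GC trend removed and with the mean over all probes, 3 at 1.5-fold and 18 in the mean of the arrays, and 2 were lower without a filter. The cause of these changes was not tested. No alternative can give the error of a ratio more than 2 arrays, and 6 of the 9 members had a signal too low for the filter.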
